A study of Mus musculus with 11 samples.

Results

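Male germ cells express their own versions of several enzymes of sugar metabolism. The transcripts described here are those of 9 such genes, chosen by their gene symbols from the 23074 genes counted in testes of wild type and Rfx2-/- mice at postnatal day 21 (P21). Germ cell forms are Pgk2, Pdha2 and Ldhc (3 genes), their ubiquitous forms are Pgk1, Pdha1, Ldha and Ldhb (4 genes), and Hk1 and Slc2a3 (2 genes) encode a hexokinase and a glucose transporter. All 9 had enough reads to be tested. Total RNA came from decapsulated testes of 5 wild type mice (WT1 to WT5) and 6 Rfx2-/- mice (KO6 to KO11), all on a mixed C57BL/6, 129/Sv and FVB/N background. Rfx2 encodes a transcription factor made in spermatocytes and round spermatids, and the mutants lack an exon for most of its DNA binding domain, which was cut out by breeding to a universal ACTB-cre strain. By the study's methods, the line on this background kept the neomycin cassette of the targeting vector. The study asked which transcripts depend on RFX2, and here that question is put to the isozyme pairs. Which mice were littermates is not stated in the labels, and p-values measure the spread between these mice.

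In glycolysis, glucose enters the cell through transporters such as GLUT3 (Slc2a3), is phosphorylated by hexokinase (Hk1), yields ATP at the phosphoglycerate kinase step (Pgk1 or Pgk2) and ends as pyruvate. Pyruvate is turned to lactate, and lactate back to pyruvate, by lactate dehydrogenase (Ldha, Ldhb or Ldhc), or enters mitochondria, where the pyruvate dehydrogenase complex with its E1 alpha subunit (Pdha1 or Pdha2) makes acetyl-CoA. Pgk1 and Pdha1 are on the X chromosome, which is silenced during meiosis in males. Pgk2 and Pdha2 are autosomal copies that arose by retroposition and are transcribed in spermatocytes and spermatids, while Ldhc arose by gene duplication. Sertoli cells feed lactate to spermatocytes and spermatids.

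The gene pairs can be told apart by sequence, as the start of their coding regions shows. Below are 60-nt stretches of the coding strand, 5′ to 3′, from the GENCODE M21 transcripts of GRCm38, starting after the start codon at the first aligned stretch without a gap, and capitals mark bases that differ within a pair.
Pgk1, coding bases 4 to 63: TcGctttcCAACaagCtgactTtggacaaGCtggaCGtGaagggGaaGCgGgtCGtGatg
Pgk2, coding bases 4 to 63: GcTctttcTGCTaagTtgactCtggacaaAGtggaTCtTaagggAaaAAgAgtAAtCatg
Pdha1, coding bases 23 to 82: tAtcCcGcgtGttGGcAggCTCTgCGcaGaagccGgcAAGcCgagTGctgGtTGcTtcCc
Pdha2, coding bases 26 to 85: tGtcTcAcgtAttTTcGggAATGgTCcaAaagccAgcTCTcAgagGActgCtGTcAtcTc
Ldha, coding bases 4 to 63: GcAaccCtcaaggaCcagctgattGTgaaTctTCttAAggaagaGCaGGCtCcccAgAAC
Ldhc, coding bases 4 to 63: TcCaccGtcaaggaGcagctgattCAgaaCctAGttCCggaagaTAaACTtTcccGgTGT
Pgk1 and Pgk2 differed at 20 of these bases, Pdha1 and Pdha2 at 26, and Ldha and Ldhc at 21. Over the whole aligned coding regions, identity was 79.3% for Pgk1 and Pgk2 (1251 nt), 75.6% for Pdha1 and Pdha2 (1170 nt), 73.2% for Ldha and Ldhc (996 nt), 71.5% for Ldha and Ldhb and 64.0% for Ldhb and Ldhc. The longest identical run within any pair was 22 nt, shorter than the reads (46 or 50 nt as stated), and no pair shared a 46-nt window between the transcripts of its members. A read of either length from one form thus differs from the other form in at least 1 base.

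Copies elsewhere in the genome matter for Pgk1. Reads that mapped to more than 1 place were discarded by the authors, and of the 1780 windows of 46 nt in the Pgk1 transcript, 68.0% also occur in transcripts of 5 other genes, all annotated as pseudogenes. The closest is Pgk1-rs7, a processed pseudogene on the minus strand of chromosome 12 from 10898986 to 10900240. Its transcript is identical to coding bases 2 to 1251 of Pgk1, 1250 nt in one run, so the stretch printed above for Pgk1 reads the same in the copy.
Pgk1-rs7, bases 3 to 62 of its transcript, capitals where it differs from Pgk2: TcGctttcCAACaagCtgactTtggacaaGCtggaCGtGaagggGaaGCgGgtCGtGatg
Pgk1-rs7 has its own row in the table, with 0 to 2 counts per mouse and no count in 9 of 11 mice. Reads of Pgk1 that map to 1 place only are limited to at most its other 569 windows, which lowers the level of Pgk1 against Pgk2 in all mice alike. For Pdha1, 603 nt (21.2%) of its coding exons overlap exons of Map3k15 on the other strand, and reads there were left out by the authors. The share of windows found in other genes was 23.3% for Ldhb, 12.5% for Ldha, 17.5% for Pdha1 and 1.71% for Hk1, and it was 0 for Pgk2, Pdha2, Ldhc and Slc2a3. Hk1 has 18 protein coding transcripts in the annotation, and germ cell transcripts of Hk1 with their own first exon cannot be told apart from the others in a count per gene.

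Total counts were 26925157 to 29769483 in wild type and 22232097 to 27116903 in Rfx2-/- libraries, and values are given as CPM, counts scaled to a common library size by edgeR's TMM method, in which 3 counts correspond to 0.0852 to 0.139 CPM. Rfx2 itself had 191 to 472 CPM in wild type and 282 to 324 CPM in Rfx2-/- testes. This count covers all exons of the gene and does not check the deletion of 1 exon. Quasi-likelihood tests of edgeR were run on 15745 genes, and a gene was called at an adjusted p (Benjamini-Hochberg) of at most 0.01. The tissue was checked on lists of cell type markers. All 9 Sertoli cell, 6 pachytene spermatocyte and 8 round spermatid markers were measured above 3 counts in at least 1 mouse, and none of these was called in either direction. In the 7 lists for other cell types, the only marker called was Hsd3b1 of Leydig cells (91.2 ± 14.4 CPM in wild type and 50.2 ± 6.23 CPM in Rfx2-/- testes, edgeR adjusted p = 0.00126). WT3 and WT5 stood apart. Their summed level of the pachytene markers was 945 and 910 CPM, against 1456 to 1605 in the other wild type and 1593 to 1766 CPM in the Rfx2-/- mice. Their summed Sertoli cell markers were 1195 and 1306 CPM, against 819.5 to 1044 in the other wild type and 745 to 895 CPM in the Rfx2-/- mice. Round spermatid markers summed to 9.24 to 371 CPM in wild type and 29.7 to 563 CPM in Rfx2-/- testes. In whole testis, fewer cells of a type and less RNA per cell cannot be told apart.

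Per length of exon, germ cell forms stood far above the ubiquitous form of the same step in every mouse for phosphoglycerate kinase, pyruvate dehydrogenase and Ldhc. In wild type testes, Ldhc had the highest level of the 9 genes, with 1398 ± 569 CPM per kb of merged coding exons (SD, n = 5). It was followed by Slc2a3 with 529.9 ± 186 and Ldha with 208.9 ± 87.5 CPM per kb, and the ranges of these 3 genes over mice did not overlap. Then came Ldhb (134.7 ± 31.4), Pgk2 (110.3 ± 76.7), Pdha2 (78.7 ± 22.1) and Hk1 (26.9 ± 21.1 CPM per kb), each overlapping its neighbour, Ldha included. Pdha1 with 6.14 ± 1.13 and Pgk1 with 1.14 ± 0.361 CPM per kb were lowest, and neither overlapped any other member. In Rfx2-/- testes the order was Ldhc (2026 ± 244 CPM per kb, SD, n = 6), Slc2a3 (724.3 ± 23.8), Ldha (298.2 ± 31.7), Pgk2 (158.8 ± 46.8), Pdha2 (109.6 ± 5.48), Ldhb (107.5 ± 13.7), Hk1 (22.6 ± 17.0), Pdha1 (4.35 ± 0.473) and Pgk1 (0.693 ± 0.190). Only Pdha2 and Ldhb overlapped there among neighbours. Ldhb thus stood before Pgk2 and Pdha2 in wild type and after them in Rfx2-/- testes, but in wild type the ranges of these genes overlapped. Counted over windows found in no other gene, Ldhb in the mutants (137) stood above Pdha2 (112) and below Pgk2 (163 CPM per kb). Over such windows alone, Pgk1 had 3.66 CPM per kb in wild type and 2.22 in Rfx2-/- testes, still the lowest of the 9. Only exact matches in annotated transcripts were searched for these windows, so this does not settle the level of Pgk1.

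None of the 9 genes was called in either direction by edgeR, where 2.67% of all tested genes were called, 1.94% lower and 0.73% higher in Rfx2-/- testes. At an adjusted p of at most 0.05 the only member past the limit was Pdha1, against 14.9% of all tested genes. An unadjusted p under 0.05 was found for 3 of 9 members (Pgk1, Pdha1 and Pdha2), against 41.8% of all tested genes. limma voom also called 0 of 9, with 3 at an unadjusted p under 0.05, and it called 4.33% of all genes lower and 2.33% higher. DESeq2 called Pdha1 lower (log2 fold change -0.47, adjusted p = 0.0058), with 6 members at an unadjusted p under 0.05. DESeq2 called 5.79% of all genes lower and 7.28% higher. The median log2 fold change (Rfx2-/- minus wild type) was 0.45 over the 9 members and -0.05 over all tested genes, and it was 0.32 and -0.22 when total counts were used for scaling. Without WT3 and WT5 the median over the members was 0.00 and that over all genes -0.01, and again no member was called by edgeR, with 2 at an unadjusted p under 0.05.

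**Figure D1:**
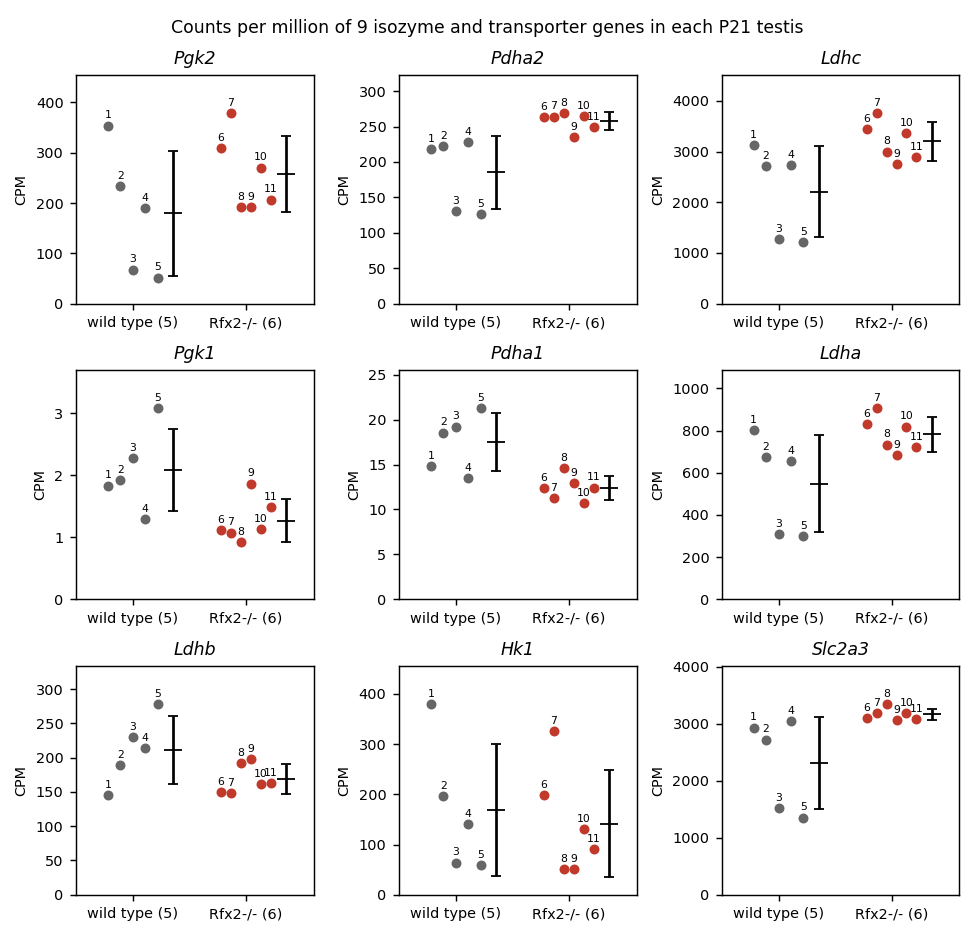
CPM (linear axes from 0) of the 9 genes in each testis, wild type in grey and Rfx2-/- in red, with mouse numbers above the points and mean ± SD in black. WT3 and WT5 are lowest in Pgk2, Pdha2, Ldhc, Ldha and Slc2a3, and all 6 Rfx2-/- mice lie above all wild type mice in Pdha2 and Slc2a3.

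Slc2a3 (ENSMUSG00000003153, chromosome 6 from 122727809 to 122801640, minus strand) encodes the high affinity glucose transporter GLUT3. Its levels in WT1 to WT5 were 2932, 2723, 1518, 3048 and 1355 CPM, and in KO6 to KO11 they were 3107, 3189, 3352, 3070, 3182 and 3087 CPM. Every Rfx2-/- mouse was above every wild type mouse, but WT4 was close to the lowest mutant, KO9. Among all tested genes, 6.5% had all Rfx2-/- mice above all wild type mice. The means were 2315 ± 813 CPM (SD, n = 5) and 3164 ± 104 CPM (SD, n = 6), a log2 fold change of 0.45 (SE 0.22, edgeR adjusted p = 0.134), and without WT3 and WT5 it was 0.13 (adjusted p = 0.330). The Rfx2-/- mice spanned 1.09-fold from the lowest to the highest, the narrowest range among the 9 genes, and wild type mice spanned 2.25-fold.

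Hk1 (ENSMUSG00000037012, chromosome 10 from 62268855 to 62379908, minus strand) encodes hexokinase 1, which has transcripts with germ cell first exons besides the ubiquitous ones. Its levels were 380, 197, 64.2, 141 and 58.9 CPM in WT1 to WT5 and 198, 326, 51.1, 50.7, 131 and 90.8 CPM in KO6 to KO11. Both genotypes varied widely, 6.46-fold among wild type and 6.43-fold among Rfx2-/- mice, and they overlapped over most of their ranges. The fitted log2 fold change was -0.25 (SE 0.60, edgeR adjusted p = 0.756, 95% interval -1.57 to 1.06), and without WT1 it was 0.30 (adjusted p = 0.679).

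Hk1 was high and low with the round spermatid markers in both genotypes, and at similar sums of these markers it was lower in the mutants. At marker sums of 23.9 to 31.9 CPM, Hk1 was at 141 CPM in WT4 and at 51.1 and 50.7 CPM in KO8 and KO9. At sums of 113 CPM in WT2 and 89.0 CPM in KO11, Hk1 had 197 and 90.8 CPM, and at 371 CPM in WT1 and 279 CPM in KO6 it had 380 and 198 CPM. KO7, with the highest sum of all (563 CPM), had 326 CPM of Hk1, less than WT1. Single markers of the list differed in direction in these comparisons. Tssk2 was at 1.79 CPM in WT4 and at 0.462 and 1.02 CPM in KO8 and KO9. It was at 12.8 CPM in WT2 and 4.18 in KO11, and at 64.9 in WT1 and 16.0 in KO6. Catsper4 was at 1.26 CPM in WT4 and at 4.67 and 4.31 CPM in KO8 and KO9. It was at 12.3 CPM in WT2 and 12.8 in KO11, and at 44.4 in WT1 and 47.5 in KO6. WT3 and WT5 had the lowest round spermatid sums (15.02 and 9.24 CPM), and no mutant mouse lay as low. Markers of elongating spermatids summed to 518.9 CPM in WT1 and 208.6 in KO6, and to 108.1 in WT2 and 54.25 in KO11. In WT4 they summed to 9.95 CPM, and in KO8 and KO9 to 13.2 and 13.8 CPM. With the mean log2 CPM of the 8 round spermatid markers as a covariate, Hk1 was called lower in Rfx2-/- testes (log2 fold change -1.02, SE 0.18, 95% interval -1.41 to -0.63, edgeR adjusted p = 0.00305). In this fit 4.26% of all tested genes were called lower and 1.89% higher, and Hk1 was the only member called. Without WT3 and WT5 the covariate fit gave -1.04 to Hk1 (adjusted p = 0.00114) and also called Pdha2 higher, while 6.81% of all tested genes were called lower and 7.06% higher. Without WT4 both Pdha1 (lower) and Pdha2 (higher) were called beside Hk1, and so were 10.8% of all tested genes lower and 12.9% higher. Leaving out KO8 or KO9 ended the call of Hk1 (-0.98, adjusted p = 0.0136, and -0.94, adjusted p = 0.0139). Whether the call depends on which markers make up the score was not tested.

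**Figure D2:**
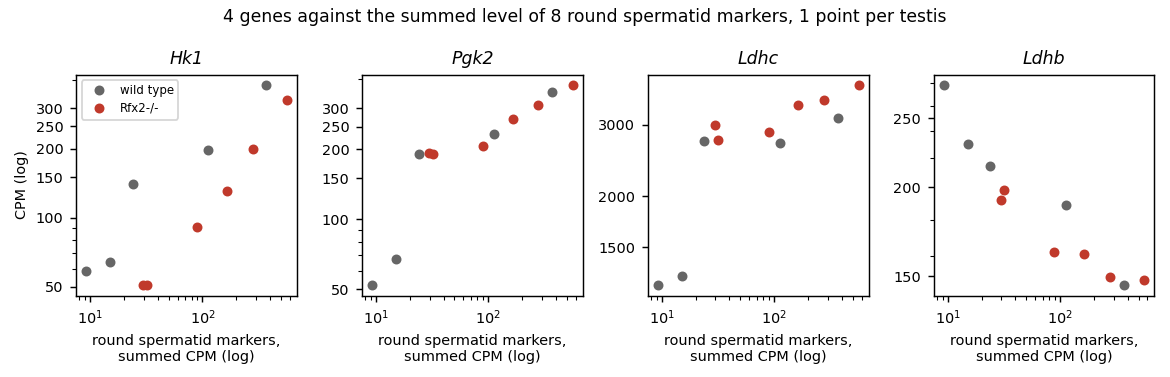
Hk1, Pgk2, Ldhc and Ldhb in each testis (CPM, log axes with a different range in each panel) against the summed CPM of 8 round spermatid markers (log axis), wild type in grey and Rfx2-/- in red. For Hk1 the red points lie below the grey ones at similar marker sums from the level of WT4 upward, whereas for Pgk2 points of both colours follow a common course.

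Pgk2 (ENSMUSG00000031233, chromosome 17 from 40207015 to 40208640, minus strand) is the germ cell phosphoglycerate kinase, and its 1626 nt of exon cover the whole gene without an intron. It was at 354, 233, 67.5, 190 and 51.8 CPM in WT1 to WT5 and at 309, 380, 192, 191, 271 and 207 CPM in KO6 to KO11. Leaving aside WT3 and WT5, the genotypes covered similar ranges, from 190 to 354 and from 191 to 380 CPM. The means were 179.4 ± 125 CPM (SD, n = 5) and 258.1 ± 76.2 CPM (SD, n = 6), a log2 fold change of 0.53 (SE 0.45, edgeR adjusted p = 0.376). Without WT3 and WT5 the fold change was 0.00. As for Hk1, Pgk2 was highest in the mice with most round spermatid markers (WT1, KO6 and KO7), but its covariate fit gave 0.24 (SE 0.23, adjusted p = 0.459).

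Pgk1 (ENSMUSG00000062070, chromosome X from 106187100 to 106203699, plus strand), the ubiquitous form, had only 20 to 98 counts per mouse. Its levels were 1.83, 1.92, 2.27, 1.30 and 3.08 CPM in WT1 to WT5 and 1.12, 1.07, 0.925, 1.87, 1.13 and 1.48 CPM in KO6 to KO11. WT5 was highest and KO8 lowest, and WT1, WT4, KO9 and KO11 lay where the genotypes overlapped. The means were 2.08 ± 0.660 CPM (SD, n = 5) and 1.27 ± 0.347 CPM (SD, n = 6), a log2 fold change of -0.72 (SE 0.24, 95% interval -1.25 to -0.18, edgeR unadjusted p = 0.0131, adjusted p = 0.0622). Without WT3 and WT5 it was -0.40 (adjusted p = 0.353).

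Pdha2 (ENSMUSG00000047674, chromosome 3 from 141210004 to 141212355, minus strand) is the germ cell E1 alpha subunit of pyruvate dehydrogenase, likewise without an intron over its 2352 nt. It had 218, 223, 131, 229 and 126 CPM in WT1 to WT5 and 264, 264, 270, 236, 265 and 249 CPM in KO6 to KO11. All mutant mice were above all wild type mice. The lowest mutant, KO9, was at 236 and the highest wild type, WT4, at 229 CPM. The means were 185.2 ± 52.1 CPM (SD, n = 5) and 257.9 ± 12.9 CPM (SD, n = 6), a log2 fold change of 0.48 (SE 0.16, 95% interval 0.12 to 0.84, edgeR adjusted p = 0.0641). Without WT3 and WT5 it was 0.22 (adjusted p = 0.0208).

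Pdha1 (ENSMUSG00000031299, chromosome X from 160122209 to 160138413, minus strand) moved the other way. It was at 14.8, 18.6, 19.2, 13.5 and 21.3 CPM in WT1 to WT5 and at 12.4, 11.3, 14.6, 12.9, 10.7 and 12.5 CPM in KO6 to KO11. Only KO8 exceeded the lowest wild type mouse, WT4. The means were 17.49 ± 3.21 CPM (SD, n = 5) and 12.39 ± 1.35 CPM (SD, n = 6), a log2 fold change of -0.50 (SE 0.13, 95% interval -0.78 to -0.21, edgeR adjusted p = 0.0321), which was the smallest adjusted p among the 9 genes and above the limit of 0.01. WT3 and WT5, lowest in Pdha2, were the highest in Pdha1. Without them the fold change was -0.33 (adjusted p = 0.143).

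Ldhc (ENSMUSG00000030851, chromosome 7 from 46861203 to 46878142, plus strand) encodes the lactate dehydrogenase subunit of germ cells and sperm. Its levels were 3120, 2711, 1273, 2735 and 1208 CPM in WT1 to WT5 and 3446, 3765, 2998, 2754, 3361 and 2884 CPM in KO6 to KO11. The mutants and WT1, WT2 and WT4 shared the range from 2711 to 3765 CPM, and WT3 and WT5 stood below it. The means were 2210 ± 900 CPM (SD, n = 5) and 3201 ± 386 CPM (SD, n = 6), a log2 fold change of 0.54 (SE 0.26, edgeR adjusted p = 0.136), and without WT3 and WT5 it was 0.17 (adjusted p = 0.403).

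Ldha (ENSMUSG00000063229, chromosome 7 from 46841475 to 46855627, plus strand) encodes the muscle type subunit and lies 5575 nt from Ldhc on the same strand. It was at 801, 673, 309, 657 and 299.9 CPM in WT1 to WT5 and at 829.5, 906, 733, 683, 818 and 722 CPM in KO6 to KO11. Mouse by mouse it followed Ldhc. The log2 fold change was 0.51 (SE 0.25, edgeR adjusted p = 0.144), and without WT3 and WT5 it was 0.15 (adjusted p = 0.410).

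Ldhb (ENSMUSG00000030246, chromosome 6 from 142490249 to 142507957, minus strand) encodes the heart type subunit. It had 146, 189, 230, 214 and 279 CPM in WT1 to WT5 and 149.6, 148.5, 192, 198, 162 and 163 CPM in KO6 to KO11. Unlike the other lactate dehydrogenase genes, it was highest in WT5 and WT3 and lowest in WT1, KO7 and KO6. The log2 fold change was -0.33 (SE 0.15, edgeR adjusted p = 0.122), and without WT3 and WT5 it was -0.11 (adjusted p = 0.698).

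**Figure D3:**
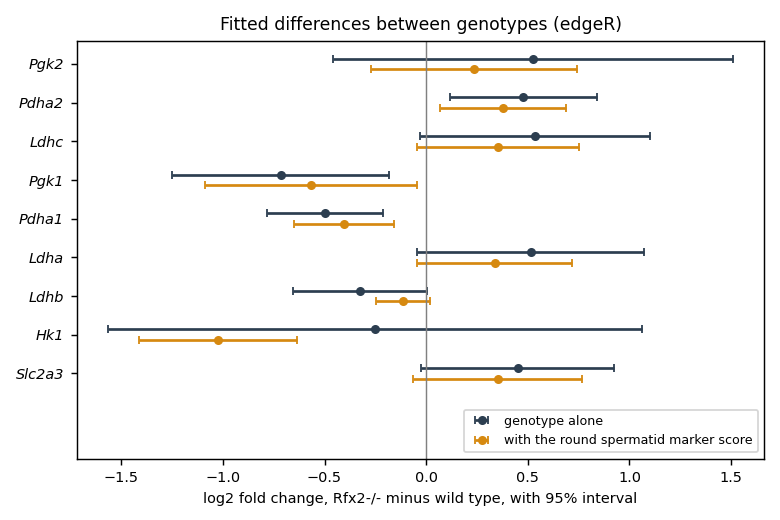
Fitted log2 fold changes (Rfx2-/- minus wild type) of the 9 genes with 95% intervals from edgeR, for genotype alone (dark) and with the round spermatid marker score as a covariate (orange). Intervals of Pgk1, Pdha1 and Pdha2 exclude 0 in both fits before adjustment over all genes, and that of Hk1, -1.57 to 1.06 for genotype alone, narrows to -1.41 to -0.63.

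The isozyme pairs were compared within each mouse as the ratio of germ cell to ubiquitous form per exon length, in which library scaling cancels, by two-sided exact permutation tests over the 11 mice with p-values adjusted over the 4 ratios and a limit of 0.05. Per length, Pdha2 exceeded Pdha1 by 17.8, 14.5, 8.22, 20.5 and 7.17-fold in WT1 to WT5 and by 25.8, 28.3, 22.4, 22.1, 30.0 and 24.2-fold in KO6 to KO11. The length of Pdha1 includes the exons shared with Map3k15, whose reads were left out, so these ratios are too high in all mice alike. All mutant ratios were above all wild type ratios, and how often ratios of other gene pairs separate in this way was not tested. Geometric means were 12.6 and 25.3, a difference of 1.01 on the log2 scale (95% interval 0.34 to 1.76, exact permutation p = 0.00433, adjusted p = 0.0173), the smallest p that 5 and 6 mice allow. Without WT3 and WT5 the difference was 0.54 and all mutants were still above, and its exact permutation p of 0.0238 was the smallest possible for 3 and 6 mice (adjusted p = 0.0952).

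For Pgk2 over Pgk1 the ratios per length were 217, 137, 33.4, 165 and 18.9 in WT1 to WT5 and 310.2, 397, 233, 115, 269 and 157 in KO6 to KO11. Low counts of Pgk1 and its masked sequence make these ratios imprecise and too high in all mice alike. The geometric means were 79.0 and 228, a log2 difference of 1.53 (95% interval -0.07 to 3.32, exact permutation p = 0.0606, adjusted p = 0.0808), and without KO9 it was 1.72 (adjusted p = 0.0476). WT3 and WT5 had the lowest ratios, and without them the difference was 0.42 (adjusted p = 0.429).

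Ldhc over Ldha was steady where the other ratios were not. It was 6.46, 6.69, 6.85, 6.91 and 6.68 per length in WT1 to WT5 and 6.90, 6.90, 6.79, 6.69, 6.82 and 6.63 in KO6 to KO11, while Ldhc alone varied 2.58-fold and Ldha 2.67-fold among wild type mice. The log2 difference between genotypes was 0.01 with a 95% interval from -0.03 to 0.06 (exact permutation p = 0.459). Over all 11 mice the log2 ratio had an SD of 0.03, and of the 15744 other tested genes none had a smaller SD of its log2 ratio to Ldhc than Ldha. As given above, the transcripts of these neighbouring genes shared no 46-nt window. Of the windows of Ldha, 12.5% occur in transcripts of other genes, against 0 for Ldhc. The ratio per length is thus too high in all mice alike.

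For Ldhc over Ldhb the ratios per length were 21.3, 14.3, 5.50, 12.7 and 4.31 in WT1 to WT5 and 22.9, 25.2, 15.5, 13.8, 20.7 and 17.6 in KO6 to KO11. Of the windows of Ldhb, 23.3% occur in another gene, so these ratios too are too high in all mice alike. Geometric means were 9.82 and 18.9, a log2 difference of 0.94 (95% interval -0.04 to 2.03, exact permutation p = 0.0563, adjusted p = 0.0808), and without WT1 it was 1.22 (adjusted p = 0.0381). WT3 and WT5 had the lowest ratios, and without them the difference was 0.27 (exact permutation, adjusted p = 0.429). As in the other pairs with low values in WT3 and WT5, these mice also had the fewest pachytene and the most Sertoli cell marker transcripts, and the part of cell composition in the ratios was not tested.

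**Figure D4:**
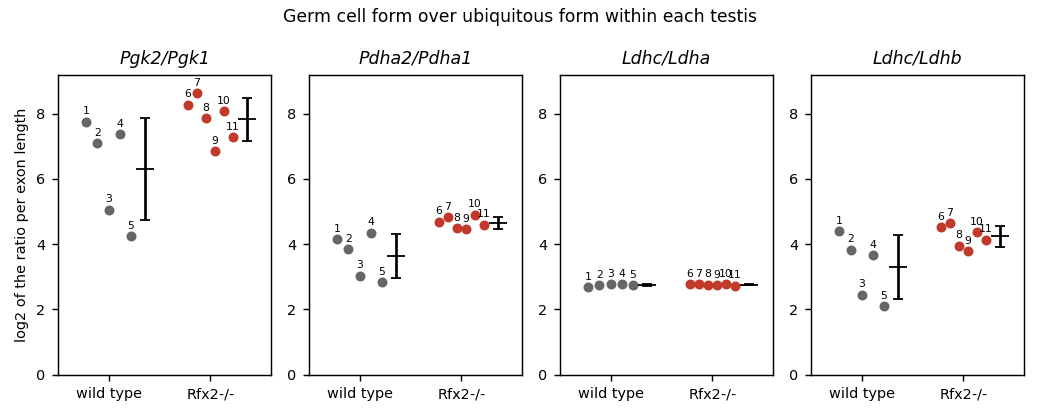
Log2 of the ratio of germ cell form to ubiquitous form per exon length in each testis, on 1 common axis, with mouse numbers and mean ± SD in black. All 6 mutants exceed all 5 wild type mice for Pdha2/Pdha1, and Ldhc/Ldha lies on nearly a single level in all 11 mice.

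The genes most like each member were found by the Pearson correlation of log2 CPM, centred within genotype, over the 11 mice. WT3 and WT5 lie far from the rest in many genes, so r is also given for the 9 other mice. Pgk2 was closest to Itgb1bp1 (r = 0.999, 0.996 without both mice), Spata24 and Gm128. Pdha2 was closest to Thoc7 (0.998, 0.961 without both), Ttc21b and Dym. Among the genes closest to Ldhc were Bin3 (0.999, 0.990 without both) and Ybx3, and Ldha was closest to Elof1 (0.998, 0.991 without both), AI429214 and Ldhc itself. Hk1 was closest to Lrif1 (0.996, 0.994 without both), Sec14l1 and Zfp821, and Slc2a3 to Atxn7l3b (0.998, 0.931 without both), Pou6f1 and Cdc42ep3. Ldhb was closest to Suclg2, which encodes a mitochondrial succinate-CoA ligase subunit (0.995, 0.994 without both), Raly and Utp6. The partners of the ubiquitous X-linked genes were Stc2 (0.956, 0.921 without both), Tpm3-rs7 and Zfp651 for Pgk1 and Sspn (0.941, 0.900 without both), E2f2 and Ephb3 for Pdha1.

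In the wider pathway, the only gene called was Eno2. The list held 53 genes of glucose transport, glycolysis, lactate and pyruvate transport and pyruvate dehydrogenase, the 9 members included, and 48 were tested. The rest, such as Eno1b and Pklr, had too few reads, except Ldhal6b, which was not found among the counted genes. By edgeR, 1 of 48 was called lower and 0 were called higher, against 1.94% and 0.73% of all tested genes, and 22 (45.8%) had an unadjusted p under 0.05, against 41.8%. limma voom called 1 lower (Hk3) and 1 higher (Slc2a8), and DESeq2 called 2 lower (Eno2 and Pdha1) and 2 higher (Bsg and Slc2a8), names given after their values were seen. Of the 48 fold changes, 26 were above 0 and 22 below, and the median log2 fold change was 0.03. Eno2 encodes the neuronal type of enolase. It was at 1.73, 0.875, 1.76, 1.44 and 1.48 CPM in WT1 to WT5 and at 0.519, 0.578, 0.740, 0.622, 0.652 and 0.610 CPM in KO6 to KO11, where all mutants were below all wild type mice, as in 5.2% of all tested genes. Its log2 fold change was -1.23 (SE 0.19, edgeR adjusted p = 0.00336), at 13 to 62 counts per mouse, and the call was lost when WT3, KO6, KO7, KO9, KO10 or KO11 was left out.

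**Figure D5:**
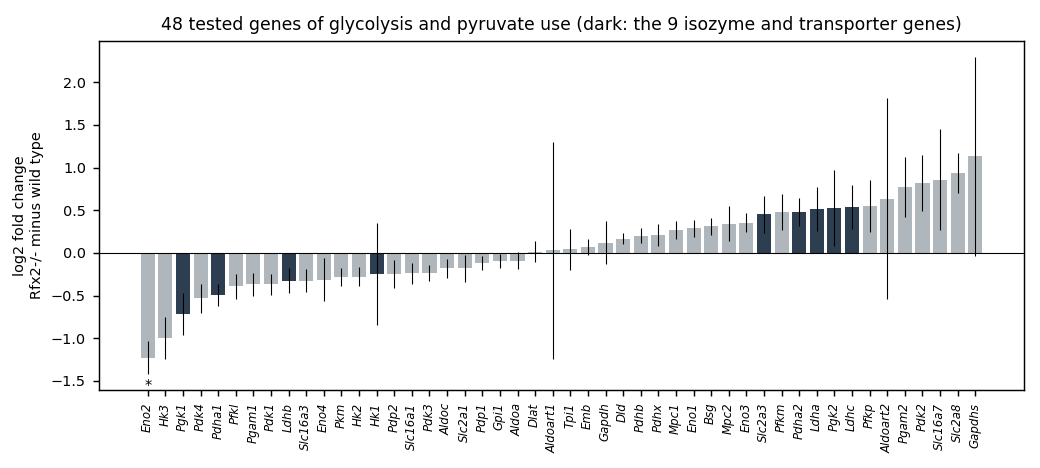
Log2 fold changes (Rfx2-/- minus wild type, bars from 0, lines are ± SE) of the 48 tested genes of glycolysis and pyruvate use, ordered by value, with the 9 members dark and an asterisk at the gene called at an adjusted p of at most 0.01. Only Eno2 carries an asterisk, and Pgk2, Pdha2, Ldha, Ldhc and Slc2a3 lie close together between 0.45 and 0.54.

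Germ cell forms of other steps were not called either, and Gapdhs and both aldolase retrogenes were highest in WT1 and KO7, the mice with most round spermatid markers. Gapdhs, the sperm glyceraldehyde-3-phosphate dehydrogenase, ranged from 1.23 (WT5) to 92.9 CPM (WT1) in wild type and from 5.46 (KO8) to 169.6 CPM (KO7) in Rfx2-/- testes, with a log2 fold change of 1.13 (SE 1.17, edgeR adjusted p = 0.464). The aldolase retrogenes Aldoart1 (0.03, SE 1.28, adjusted p = 0.988) and Aldoart2 (0.64, SE 1.18, adjusted p = 0.686) varied 29.0-fold or more within each genotype. Eno4, the sperm enolase, had 25.9 to 69.5 CPM in wild type and 28.8 to 45.7 CPM in mutants (-0.31, SE 0.25, adjusted p = 0.341). With the round spermatid marker score as a covariate, Aldoart1 had -0.80 (edgeR adjusted p = 0.0157) and Eno4 -0.52 (adjusted p = 0.0236). In that fit Aldoart2 had -0.10 (adjusted p = 0.596) and Gapdhs 0.28 (adjusted p = 0.0836), and none of these genes was called. Of the ubiquitous forms, Aldoa had 228.9 ± 21.2 and 214.9 ± 28.7 CPM and Eno1 63.6 ± 5.35 and 77.7 ± 10.7 CPM (SD, n = 5 and 6, adjusted p = 0.484 and 0.0647). Gapdh had only 0.684 ± 0.114 and 0.747 ± 0.259 CPM (adjusted p = 0.726), and 59.2% of its 46-nt windows also occur in transcripts of 242 other genes. For Eno1 50.35% of the windows occur in transcripts of 10 other genes, and 49.2% in those of Eno1b.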

How the data were processed

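RNA-Seq libraries (TruSeq, total RNA) of 5 wild type and 6 Rfx2-/- testes at P21 were grouped by their labelled genotype. The deposited table holds raw counts of reads per gene, without normalization. According to the authors, reads were mapped to GRCm38, reads with more than 1 location were discarded, and reads on merged exons of protein coding isoforms were counted, leaving out those over exons of different genes. The submitters' processing notes name CASAVA 1.8.2, STAR 2.4 and featureCounts 1.4.6. The study's supplementary text gives read lengths of 46 and 50 nt and names Bowtie as well as STAR. The authors tested with DESeq at a p of at most 0.01.

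Genotypes were compared with edgeR 4.0.16 under R 4.3.3 (filterByExpr, TMM, glmQLFit, glmQLFTest, no covariate). Benjamini-Hochberg adjustment ran over all 15745 tested genes, and a call was an adjusted p of at most 0.01. DESeq2 1.42.0, limma 3.58.1 voom, other scalings and filters, a round spermatid marker score (mean log2 CPM, prior count 2) as covariate, and leaving out mice were alternatives. The fits were tested on simulated data. Levels between genes were divided by merged exon length of GENCODE M21 protein coding transcripts. Ratios were compared by two-sided exact permutation tests (SciPy 1.17.1). Windows of 46 nt were searched on both strands of all GENCODE M21 transcripts. Values were tabulated with Python 3.11.15, pandas 2.3.3 and matplotlib 3.10.9. The members, marker lists and pathway list were chosen with earlier results of these data known. Genes named are the members, pathway genes called, other germ cell forms with their ubiquitous forms, and the 3 genes most correlated with each member. Some results for single genes are left out of the text. A floor of 3 counts covers counting error only.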

Additional observations from a re-analysis of the deposited data

How the results depend on the processing

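No paired analysis was possible because the wild type mice are numbered 1 to 5 and the Rfx2-/- mice 6 to 11, and no number is shared. Of 554 recomputed values, 488 were counted as unchanged and 2 reversed, where unchanged meant the same direction and side of the limit for a test, a count within 1.5 times, and a level within 1 SD over mice. Depth limits genes with few counts per mouse, such as Pgk1 (20 to 98), Eno2 (13 to 62), Gapdh (10 to 27) and Hk3 (6 to 39). Causes of the changes below were not tested.

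Among the 9 members, 1 was called lower by DESeq2 (Pdha1, -0.47), 1 at the looser limit of 0.05 (Pdha1, -0.50) and 1 with the marker score as a covariate (Hk1, -1.02), and leaving out each mouse in turn gave 0. Hk1 without a covariate ranged from -0.69 to 0.30, with the sign turned only without WT1, and with the covariate from -1.20 to -0.88. For the pathway list, called lower were 2 by DESeq2, 0 at a mean count of at least 50, 3 at the limit of 0.05, 3 with the covariate, 0 without WT1 and KO7, 0 without WT3 and WT5, and 0 to 1 with each mouse left out. Called higher were 2 by DESeq2, 1 by voom, 1 at the limit of 0.05, 1 with the covariate, and 0 to 1 with each mouse left out. Over all genes, called lower and higher were 911 and 1146 by DESeq2, 682 and 367 by voom, 1382 and 968 at the limit of 0.05, 671 and 298 with the covariate, against 305 and 115, and with each mouse left out 184 to 393 and 45 to 192. The highest counts came without WT1.

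The log2 difference of Pdha2/Pdha1 was 0.79 between medians (adjusted p = 0.104), 1.11 without WT1 and KO7 (0.0635, the smallest adjusted p that 4 and 5 mice allow for 1 ratio alone) and 0.54 without WT3 and WT5, and it ranged from 0.81 to 1.19 with each mouse left out. Ranges with each mouse left out were 1.01 to 1.89 for Pgk2/Pgk1 (1.72 without KO9), 0.00 to 0.03 for Ldhc/Ldha and 0.64 to 1.22 for Ldhc/Ldhb, and without WT1 and KO7 Ldhc/Ldha turned to -0.0039. Windows found in no other annotated gene were also used as length, chosen after seeing the data. In wild type and Rfx2-/- testes they gave 3.66 and 2.22 CPM per kb for Pgk1 and 7.56 and 5.36 for Pdha1. For Ldhb they gave 171 and 137. Exons of all transcripts gave 4.68 and 3.32 for Pdha1, 319.6 and 437 for Slc2a3, and 236 for Ldha in mutants. Scaling by total counts gave 104 for Pdha2 and 688 for Slc2a3 in mutants.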
